A study of Mus musculus with 12 samples.

Results

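The complement components examined here were 9 genes chosen by symbol: C1qa, C1qb, C1qc, C1ra, C2, C3, C4b, Cfb and C3ar1. They encode the parts that start and amplify the complement cascade and a receptor for one of its products. All 9 were found among the 35976 genes listed for each library, and all 9 were among the 18853 genes with enough counts to be tested. They were followed in 12 RNA-seq libraries of mouse back-skin scars, 3 in each of 4 groups. The mice were male, 8 to 12 weeks old and either Tem1WT/WT or Tem1lacZ/lacZ. In the latter the only exon of Tem1 (Cd248) is replaced by lacZ in the whole animal, so that no cell type is singled out by the deletion, and the line was backcrossed to C57BL/6J. Every mouse received a 1.5-cm wound and, after 6 days, a device on the back. In the traction groups the device was lengthened by 1 mm/day to 8 mm in total, and in the sham groups it was worn without lengthening.

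Complement is a set of plasma and tissue proteins that mark microbes, dead cells and debris for removal. In the classical pathway C1q, built from the A, B and C chains, binds a target, and the proteases C1r and C1s then cleave C4 and C2. The products form an enzyme that cleaves C3, and factor B (Cfb) builds a second such enzyme that amplifies the cleavage. The small fragment C3a acts on the receptor C3ar1, mostly on myeloid cells. The liver makes much of the circulating protein, while macrophages are the usual source of C1q in tissues and fibroblasts can make C1r, C1s, C3 and factor B.

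In the annotation of GRCm38 the 3 C1q chains are neighbours on the minus strand of chromosome 4, with C1qb at 136880129 to 136886187, C1qc at 136889804 to 136893065 and C1qa at 136895917 to 136898803. On the minus strand of chromosome 17, C4b lies at 34728380 to 34743882, Cfb at 34856374 to 34862518, C2 at 34862604 to 34898265 and C3 at 57203970 to 57228136. C1ra lies on the plus strand of chromosome 6 at 124512405 to 124523443, and C3ar1 on the minus strand at 122847138 to 122856161. The values below cover whole genes, exons joined.

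Upstream sequence was found in RefSeq for 5 of the 9 genes (C1qb, C1qc, C1ra, C3 and C3ar1). It is shown for C1qb, the highest component per kilobase, and for C3, which varied most between scars. The C1qc window is described and not shown, since 151 of its bases lie within the gene in the GENCODE model. The C1ra window likewise holds 216 bases of the GENCODE gene and that of C3ar1 holds 4, so the absence of motifs there does not describe sequence upstream of those models alone. Each line gives the 250 bases before the RefSeq start in GRCm38.p6, on the minus strand, 5′ to 3′, at chr4:136886201-136886450 for C1qb and chr17:57228137-57228386 for C3. Capitals mark the motif matches described next.
C1qb: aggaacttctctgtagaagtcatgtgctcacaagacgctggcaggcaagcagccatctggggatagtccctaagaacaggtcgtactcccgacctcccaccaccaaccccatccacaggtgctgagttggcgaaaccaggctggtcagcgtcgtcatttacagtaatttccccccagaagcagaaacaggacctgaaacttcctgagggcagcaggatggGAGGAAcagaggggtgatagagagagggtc
C3: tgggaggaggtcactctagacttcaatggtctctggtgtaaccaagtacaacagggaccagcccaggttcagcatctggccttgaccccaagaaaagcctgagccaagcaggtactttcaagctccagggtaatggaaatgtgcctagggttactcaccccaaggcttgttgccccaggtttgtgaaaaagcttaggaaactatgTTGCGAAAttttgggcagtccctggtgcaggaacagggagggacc

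5 motifs were searched on both strands. The letters GAGGAA, the core of sites for the myeloid factor PU.1, occurred once in C1qb, beginning 30 bases before the start, and once, as the reverse complement, in C1qc, beginning 193 bases before it. These letters occurred in 23.3% of the 32851 mouse windows of the same length. TTGCNNAA, a form of the C/EBP site, occurred once in C3, 45 bases before the start, and in 9.56% of all windows. No window of the 5 genes held TTCNNNGAA (STAT, 7.02% of all windows), GAAANNGAA (IRF, 7.13%) or GGANTTTCC (NF-kB, 1.07%), and the windows of C1ra and C3ar1 held none of the 5 motifs. A match describes letters, and binding was not measured.

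Library totals were 41536788 to 64644293 counts, and the 9 genes together took 0.0835% to 0.340% of a library. Cd248 was at 92.4 to 337 CPM (counts scaled to library size with TMM factors) in Tem1WT/WT libraries and at no more than 0.248 CPM in Tem1lacZ/lacZ libraries. Markers of macrophages, fibroblasts and keratinocytes were present in every scar, whereas the 6 hepatocyte markers summed to at most 1.58 CPM. One library stood apart by its neutrophil markers: the 12 markers summed to 7558 CPM in traction replicate 1 of Tem1WT/WT mice and to 120 to 758 CPM in the other 11 libraries. It is named below where a value rests on it. The RNA came from whole scar tissue, so more cells of a type and more RNA per cell cannot be told apart.

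All 9 components were readily detected, with at least 1009 counts in every library. Per kilobase of exon, the mean levels over the 12 libraries were highest for C1qb (309 RPKM) and C1qa (287 RPKM). C1qc followed at 114 RPKM, close to C3 at 111 RPKM, and Cfb was at 76.6, C4b at 63.0 and C1ra at 54.5 RPKM. The receptor C3ar1 was at 21.1 and C2 at 9.98 RPKM. Neighbours in this order overlapped in their ranges over the 12 libraries, except C1qa and C1qc, whose lowest and highest libraries did not meet. C3 varied too widely between scars (34.8-fold from lowest to highest) for its place to be fixed.

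None of the 9 components passed the test in any comparison. With traction in Tem1WT/WT mice 0 of 9 were called, against 9.15% of all genes tested (edgeR's quasi-likelihood test, Benjamini-Hochberg adjusted p under 0.05). With traction in Tem1lacZ/lacZ mice 0 of 9 were called against a background of 0%. Between the genotypes 0 of 9 were called with traction (background 0.106%) and 0 of 9 in sham scars (background 0.0106%). The interaction, which tests whether traction acted differently in the genotypes, called 0 of 9 against 0%. The mean of both traction effects, which uses all 12 libraries, called 0 of 9 against 9.73%. In edgeR no component had an unadjusted p under 0.05 in any of the 6 comparisons, where 8.12% (traction in Tem1lacZ/lacZ mice) to 31.4% (traction in Tem1WT/WT mice) of all genes did. DESeq2 also called 0 of 9 in each, and had unadjusted values under 0.05 for 1 component in the Tem1WT/WT traction comparison, 1 in the genotype comparison with traction and 3 in the averaged traction effect, against 34%, 28.6% and 33.2% of all genes. limma-voom called 1, C1ra, in the averaged effect, where it called 20.6% of all genes.

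**Figure D1:**
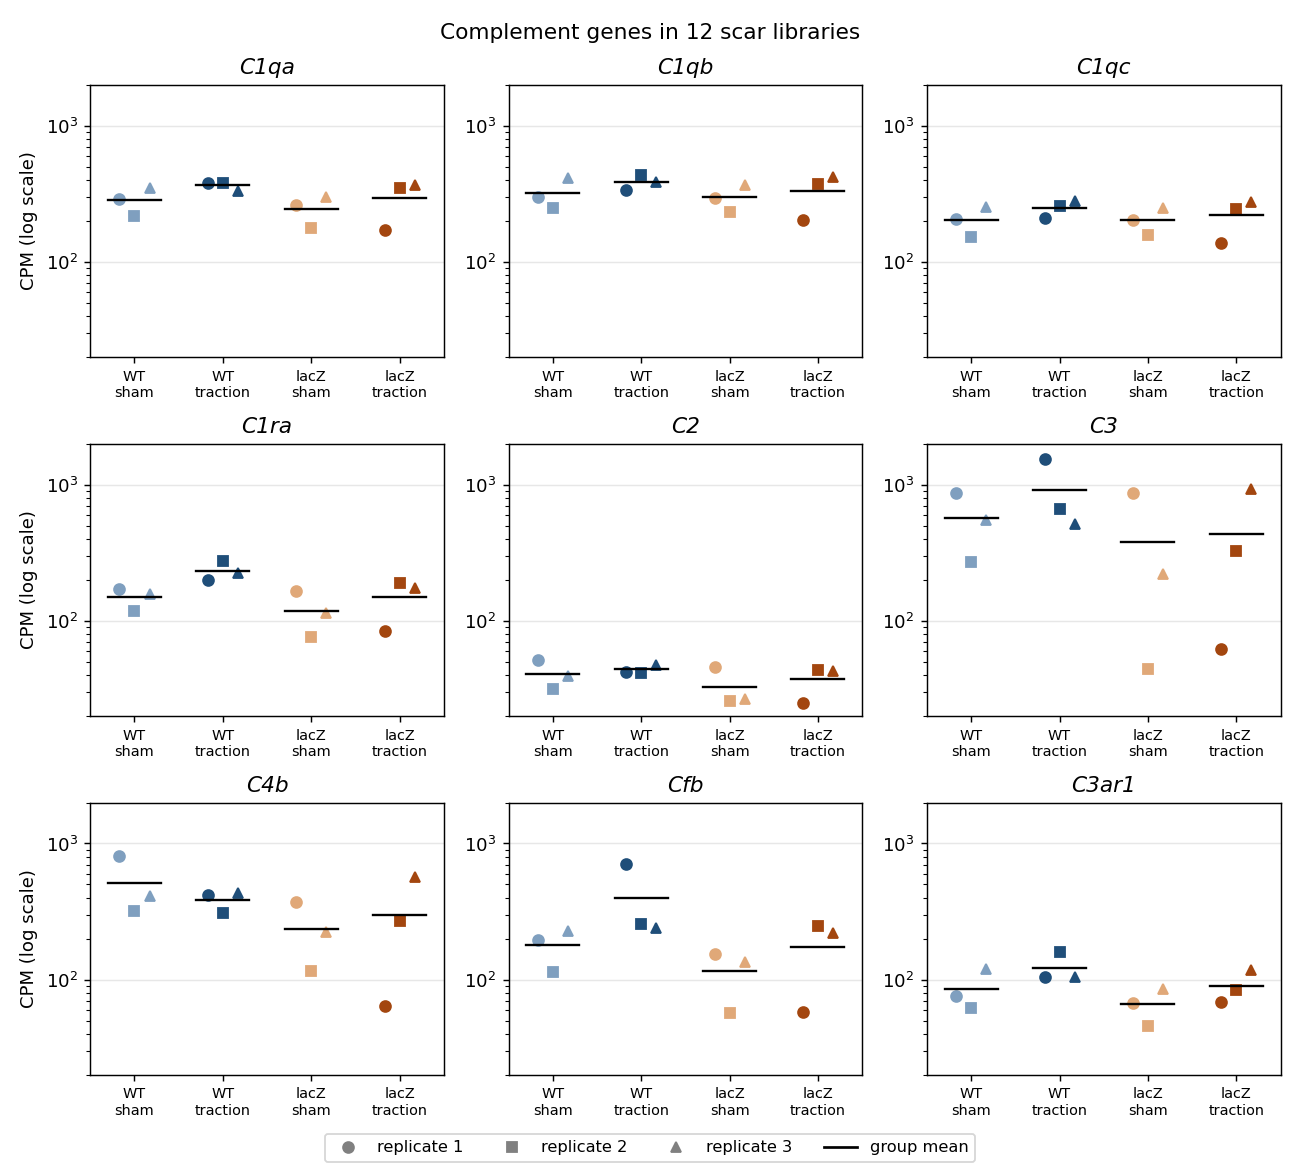
Level of each of the 9 components in CPM (log axis) in the 12 libraries. Points are libraries, shaped by replicate number, and lines are group means (n = 3). The C1q chains and C2 span about 2-fold over all libraries, while C3 spans 34.8-fold, and the lowest library of every gene is sham replicate 2 or traction replicate 1 of Tem1lacZ/lacZ mice.

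The C1q chains, the recognition part of the classical pathway, varied by 2.06-fold to 2.22-fold over the 12 libraries, much like C2 (2.07-fold). In Tem1WT/WT scars C1qa was at 289, 219 and 349 CPM in the sham group and at 380, 379 and 335 CPM in the traction group. In Tem1lacZ/lacZ scars it was at 261, 179 and 300 CPM in the sham group and 171, 352 and 365 CPM with traction. The highest Tem1WT/WT sham library lay above the lowest traction library, and traction replicate 1 of Tem1lacZ/lacZ mice was the lowest of all 12. The log2 fold change with traction was 0.35 ± 0.29 (SE) in Tem1WT/WT mice, with a 95% confidence interval from -0.30 to 1.00 (adjusted p = 0.441). Its value was 0.26 ± 0.29 in Tem1lacZ/lacZ mice (adjusted p = 0.818).

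C1qb was at 302, 248 and 415 CPM in sham and 340, 437 and 385 CPM in traction scars of Tem1WT/WT mice. The corresponding values in Tem1lacZ/lacZ mice were 294, 233 and 369 CPM and 204, 377 and 424 CPM. All 4 groups overlapped. C1qc was at 206, 153 and 255 CPM and at 211, 258 and 282 CPM in Tem1WT/WT sham and traction scars, and at 204, 158 and 248 CPM and at 137, 246 and 277 CPM in those of Tem1lacZ/lacZ mice. Its groups overlapped in the same way. Log2 fold changes with traction were 0.27 and 0.29 for C1qb and C1qc in Tem1WT/WT mice and 0.16 and 0.11 in Tem1lacZ/lacZ mice.

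The proportions of the chains were compared per kilobase. On that scale, C1qa was at 0.803 to 1.17 times the level of C1qb in the 12 libraries, and C1qc at 0.332 to 0.413 times. C1qa was at 2.097 to 3.35 times the level of C1qc, and this ratio was lower in Tem1lacZ/lacZ than in Tem1WT/WT sham scars without overlap (means 2.24 and 2.61, exact permutation p = 0.1). The other 11 comparisons of these ratios gave exact permutation p from 0.2 to 0.8. With 3 against 3 libraries no p below 0.1 is possible, so none of them could have passed 0.05. Altogether, 12 ratios and sums were compared in 48 tests, of which 7 reached p = 0.1 (0.626 after Benjamini-Hochberg adjustment, exact permutation tests). Over the 12 libraries log2 CPM of C1qb and C1qc had r = 0.970, and r = 0.971 after group means were removed; the libraries share tissue composition and depth, and the value is a description.

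The C1q chains were set beside macrophage markers. The 14 markers summed to 2206 to 3669 CPM in the sham and 3476 to 4842 CPM in the traction group of Tem1WT/WT mice, and to 1739 to 3531 and 2074 to 3889 CPM in those of Tem1lacZ/lacZ mice. The 4842 CPM belonged to traction replicate 1, the library rich in neutrophil markers. Cd14 was at 979 CPM there and at 55.9 and 93.7 CPM in traction replicates 2 and 3. Lyz2 was the highest of the 14 in every library. With traction in Tem1WT/WT mice 9 of the 14 had positive and 5 negative values, and 1 was called, beside 9.15% of all genes. None of the 14 was at 0 in any library. The summed C1q chains were at 0.192 to 0.328 CPM per CPM of these markers, and this ratio did not separate any pair of groups (exact permutation p from 0.5 to 0.9). The chains were also set against 3 of the 14 markers alone (Adgre1, Csf1r and Mertk). This subset was picked from the 14, and no other subset was compared. With traction the mean ratio was 1.29 ± 0.162 (SD, n = 3) in Tem1WT/WT and 1.54 ± 0.0555 in Tem1lacZ/lacZ scars, with no overlap. In sham scars it was 1.42 and 1.79. Both differences gave an exact permutation p = 0.1 before any correction, the smallest the design allows, so neither could reach 0.05. With traction the 3 markers themselves summed to 741 to 840 CPM in Tem1WT/WT and 321 to 687 CPM in Tem1lacZ/lacZ scars, without overlap. Of the 3, only Csf1r separated these groups, at 640, 495 and 495 CPM in Tem1WT/WT and 196, 307 and 423 CPM in Tem1lacZ/lacZ scars. Adgre1 and Mertk overlapped. The C1q sums of these scars, 931 to 1074 and 512 to 1066 CPM, did overlap. In sham scars both sums overlapped between the genotypes. The part of macrophage content in the C1q levels was not tested.

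**Figure D2:**
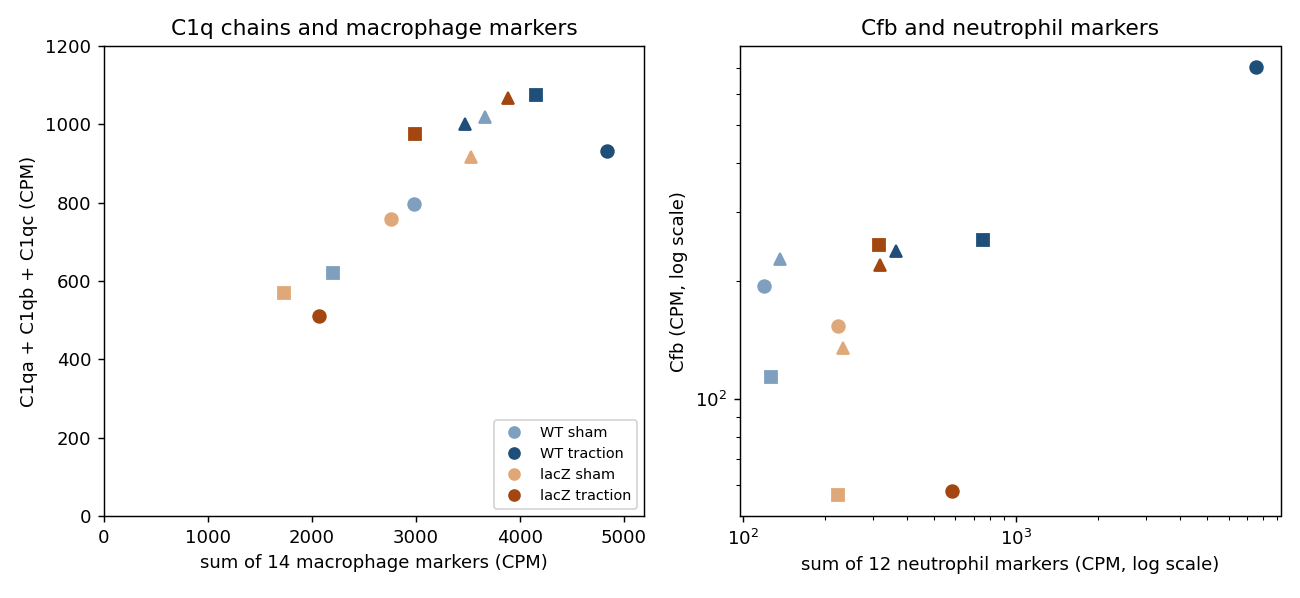
Left, summed C1q chains (CPM) against the sum of 14 macrophage markers (CPM); right, Cfb against the sum of 12 neutrophil markers (CPM, both axes log). Each point is a library, coloured by group and shaped by replicate number as in the plot of levels. The C1q sum runs from 512 to 1074 CPM, and traction replicate 1 of Tem1WT/WT mice lies far to the right in the neutrophil plot.

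C1ra encodes the protease C1r, which activates C1s once C1q has bound. It was at 172, 117 and 158 CPM in the sham group of Tem1WT/WT mice and at 200, 273 and 223 CPM with traction. Scars of Tem1lacZ/lacZ mice had 165, 75.6 and 114 CPM without and 83.7, 191 and 175 CPM with traction. All 3 Tem1WT/WT traction libraries lay above the Tem1WT/WT sham libraries and above the Tem1lacZ/lacZ traction libraries, while the remaining comparisons overlapped.

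The log2 fold change of C1ra with traction was 0.64 ± 0.33 in Tem1WT/WT mice (interval -0.10 to 1.37, adjusted p = 0.214) and 0.34 ± 0.33 in Tem1lacZ/lacZ mice (adjusted p = 0.786). Averaged over the genotypes it was 0.49 ± 0.24 (adjusted p = 0.184). This average was the one result of a component that crossed the threshold in an alternative: limma-voom gave 0.67 (adjusted p = 0.0391), and edgeR without traction replicate 1 of Tem1lacZ/lacZ mice gave 0.65 (adjusted p = 0.0496). Over the 20 alternatives run for it the adjusted p ran from 0.0391 to 0.339. Per kilobase, C1ra was at 0.289 to 0.441 times the level of its partner C1s1. The ratio was higher with traction in both genotypes without overlap, at 0.413 against 0.349 in Tem1WT/WT and 0.371 against 0.296 in Tem1lacZ/lacZ mice (exact permutation p = 0.1 in each, the smallest possible). In Tem1WT/WT mice the highest sham and the lowest traction ratio, 0.391 and 0.398, lay close together. The 11 fibroblast markers summed to 44907 to 112180 CPM in traction and 27080 to 42698 CPM in sham scars of Tem1WT/WT mice. The collagen genes Col1a1, Col1a2 and Col3a1 make up most of this sum. Of the 11 markers 8 had positive and 3 negative values (Dcn, Dpt and Pi16). Among them 2 were called, Pdgfra and Pdgfrb, beside 9.15% of all genes. Their part in the C1ra level was not tested.

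C2, the protease subunit of the classical enzyme, was the lowest component. It stood at 51.4, 31.5 and 39.1 CPM in sham and 42.3, 41.6 and 47.6 CPM in traction scars of Tem1WT/WT mice. The Tem1lacZ/lacZ values were 46.1, 25.6 and 26.7 CPM in sham and 24.9, 43.8 and 43.0 CPM with traction. The groups overlapped, and the log2 fold changes with traction were 0.11 ± 0.28 and 0.18 ± 0.28. The first of these reached -0.0034 with upper quartile normalization and -0.024 without sham replicate 2 of Tem1WT/WT mice.

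C4b, the substrate that C1s cleaves first, was the one component with a negative log2 fold change in Tem1WT/WT mice. It was at 811, 320 and 409 CPM in sham and 421, 311 and 431 CPM in traction scars, and the groups overlapped. In Tem1lacZ/lacZ scars it was at 369, 115 and 223 CPM in the sham group and at 63.7, 270 and 565 CPM with traction, a spread of 8.87-fold within 1 group. The log2 fold change with traction was -0.41 ± 0.65 (interval -1.84 to 1.03) in Tem1WT/WT mice, and 0.086 without sham replicate 1. The value in Tem1lacZ/lacZ mice was 0.35 ± 0.65, and -0.50 without traction replicate 3.

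C3, the central component on which all pathways meet, had the widest range. It was at 869, 272 and 555 CPM in sham and 1545, 664 and 512 CPM in traction scars of Tem1WT/WT mice. In Tem1lacZ/lacZ mice it was at 875, 44.3 and 221 CPM in the sham group and 62.3, 327 and 922 CPM with traction. Libraries of 1 group thus differed more than the group means did. The log2 fold change with traction was 0.68 ± 1.02 in Tem1WT/WT mice, with an interval from -1.57 to 2.94, so that a rise or fall of several fold was within the error. Without traction replicate 1 it was 0.042. In Tem1lacZ/lacZ mice it was 0.20 ± 1.02 and ranged from -0.96 to 1.77 as single libraries were left out.

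C3 and C4b rose and fell together between scars (r = 0.888 over the 12 libraries, 0.901 after group means were removed). Sham replicate 2 and traction replicate 1 of Tem1lacZ/lacZ mice held the lowest value of each of the 9 components. The same libraries had the lowest sums of the 11 fibroblast markers among Tem1lacZ/lacZ libraries, at 18578 and 23147 CPM, where the other 4 were at 26965 to 50505 CPM. They also had the lowest macrophage sums of all 12 libraries, at 1739 and 2074 CPM against 2206 CPM or more. Traction replicate 1 also had the highest keratinocyte sum, 47177 CPM against 13063 to 23436 CPM elsewhere. The 7 adipocyte markers summed to 448 and 390 CPM in these 2 libraries and to 301 to 3874 CPM in the other 4 of Tem1lacZ/lacZ mice. Sham replicate 1 and traction replicate 3, the highest of this genotype for C3, had the highest adipocyte sums, 3874 and 2580 CPM. The part of tissue composition in the low complement levels was not tested.

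Cfb, the enzyme subunit of the amplification loop, had the largest fold change of the components with traction. It was at 194, 114 and 228 CPM in sham and 702, 254 and 238 CPM in traction scars of Tem1WT/WT mice. These groups did not overlap, but the highest sham and the lowest traction library, at 228 and 238 CPM, lay close together. Levels in Tem1lacZ/lacZ mice were 153, 56.8 and 134 CPM in sham and 58.1, 246 and 220 CPM in traction scars, and the groups overlapped. The log2 fold change was 1.16 ± 0.59 in Tem1WT/WT mice, a 2.23-fold higher level with an interval on the log2 scale from -0.15 to 2.47 (adjusted p = 0.206). Without traction replicate 1, the library rich in neutrophil markers, it was 0.45 (adjusted p = 0.638), and the part of those cells in the value was not otherwise tested. In Tem1lacZ/lacZ mice it was 0.60 ± 0.59 (adjusted p = 0.786). Its ratio to C2, the next gene on the chromosome, was 22.8 per kilobase in that library and 3.03 to 8.36 in the other 11.

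C3ar1, the C3a receptor, was at 75.8, 61.8 and 119 CPM in sham and 105, 158 and 104 CPM in traction scars of Tem1WT/WT mice. The sham and traction scars of Tem1lacZ/lacZ mice had 67.5, 45.6 and 85.6 CPM and 68.5, 84.3 and 117 CPM. The groups overlapped, with 1 high sham library in Tem1WT/WT mice. The log2 fold change with traction was 0.52 ± 0.31 in Tem1WT/WT and 0.44 ± 0.31 in Tem1lacZ/lacZ mice. Averaged over the genotypes it was 0.48 ± 0.22, with an interval from -0.0045 to 0.96 (adjusted p = 0.166).

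**Figure D3:**
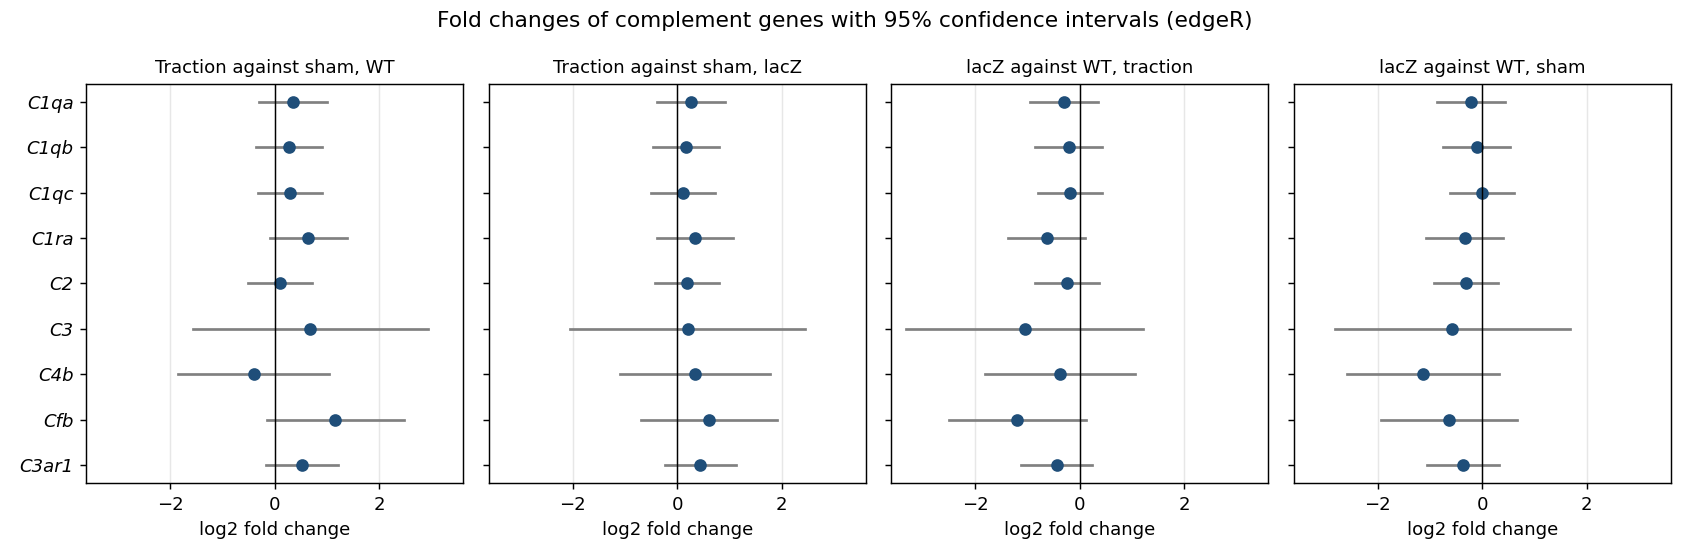
Log2 fold changes of the 9 components in 4 comparisons, with 95% confidence intervals from the edgeR fit over all 12 libraries (n = 3 per group). Every interval includes 0, and those of C3, C4b and Cfb are the widest.

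Groups that did not overlap were counted beside the share over all genes. With 9 components that vary together, such counts cannot decide whether the components differ from that share. With traction in Tem1WT/WT mice 2 of 9 components, C1ra and Cfb, did not overlap with sham, against 35.7% of all genes. With traction in Tem1lacZ/lacZ mice this held for 0 of 9, against 12.9%. Between the genotypes it held for 1 of 9, C1ra, with traction (background 26.6%) and for 0 of 9 in sham scars (background 26.8%).

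Most fold changes of the components had 1 sign, but the components vary together and are not independent of each other. With traction 8 of 9 were above 0 in Tem1WT/WT mice (median log2 fold change 0.35, against -0.0094 over all genes tested) and 9 of 9 in Tem1lacZ/lacZ mice (0.26 against -0.015). The latter median was 0.061 without sham replicate 2 or traction replicate 3 of Tem1lacZ/lacZ mice, which left 7 and 5 of 9 above 0. It was 0.14 without traction replicate 2, 0.55 without sham replicate 1 and 0.65 without traction replicate 1. In Tem1lacZ/lacZ compared with Tem1WT/WT mice all 9 were below 0 with traction (median -0.37 against 0.014) and in sham scars (-0.33 against -0.015). These comparisons share groups with each other. With traction the genotype values ran from -0.18 for C1qc to -1.19 for Cfb (adjusted p = 0.229), and 5 of 9 were above 0 once traction replicate 1 of Tem1lacZ/lacZ mice was left out. In sham scars they ran from -0.0071 for C1qc to -1.12 for C4b (adjusted p = 0.504). C1qb and C1qc were above 0 there in limma-voom, and C1qc also with upper quartile normalization. The interaction ran from -0.55 for Cfb to 0.75 for C4b, with adjusted p of at least 0.821 for every component.

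The rest of the complement system was followed through 50 other genes in 8 groups by role, of which 41 had enough counts to be tested. With traction in Tem1WT/WT mice 3 of the 41 rose and 2 fell, against the background of 9.15% given above. The median log2 fold change of the 41 was 0.14, against -0.0094 over all genes. None was called with traction in Tem1lacZ/lacZ mice, between the genotypes or in the interaction by edgeR, where 7, 8, 2 and 3 had an unadjusted p under 0.05 (the genotypes first with traction, then in sham scars). Over all genes the corresponding shares were 8.12%, 26.1%, 11.7% and 8.91%. DESeq2 called 0, 5, 0 and 0 in the same comparisons, and its 5 of 41 between the genotypes with traction stood beside 12.4% of all genes. limma-voom called 1, 0, 0 and 0, the first beside 2.31% of all genes. The genes that rose were Colec12, C5ar1 and Cd93, and the 2 that fell were C7 and C9. These calls rest on the shared error of all 12 libraries: with only the 6 Tem1WT/WT libraries, edgeR called 0 of all 17762 genes tested, where 4876 had an unadjusted p under 0.05. They also depend on single libraries. The call of C9 was lost without sham replicate 1 or 2 or traction replicate 1 of Tem1WT/WT mice. That of Cd93 was lost without sham replicate 1 or 2 or traction replicate 3 of these mice, or without sham replicate 3 or traction replicate 2 of Tem1lacZ/lacZ mice. C5ar1 kept its call in 4 of 12 omissions (Tem1WT/WT traction replicates 2 and 3, Tem1lacZ/lacZ traction replicates 1 and 3). Colec12 kept it in 2 (traction replicate 1 of either genotype), and C7 in 2 (Tem1WT/WT sham replicate 3, Tem1lacZ/lacZ traction replicate 1).

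Receptors held 2 of the 3 rises. C5ar1, the C5a receptor of neutrophils and macrophages, was at 26.6, 24.3 and 39.2 CPM in sham and 222, 79.9 and 62.1 CPM in traction scars of Tem1WT/WT mice, with no overlap. It rose by 2.01 ± 0.53 on the log2 scale (adjusted p = 0.0430), and its value was 1.22 without traction replicate 1, the library rich in neutrophil markers (adjusted p = 0.112). In Tem1lacZ/lacZ mice its log2 fold change was 0.50 ± 0.51, and the difference between the genotypes was not called (interaction -1.52 ± 0.73, adjusted p = 0.564).

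Cd93, a surface protein of endothelial and myeloid cells once taken for a C1q receptor, was at 37.6, 71.5 and 93.4 CPM in sham and 127, 228 and 240 CPM in traction scars. It rose by 1.55 ± 0.39 (adjusted p = 0.0388), and by 1.12 ± 0.27 averaged over the genotypes (adjusted p = 0.0355). All 6 endothelial markers also had positive values with traction in Tem1WT/WT mice, beside 9305 of the 18853 genes tested. Of the 6 markers 4 were called, beside 9.15% of all genes. Their sum was 803 to 923 CPM in these traction scars against 287 to 439 CPM in sham scars. The part of endothelial content in the Cd93 level was not tested. Itgam, the highest receptor gene by CPM and a subunit of complement receptor 3, was at 679 CPM in the library rich in neutrophil markers and at 289 and 177 CPM in the other traction libraries of Tem1WT/WT mice, against 90.5 to 140 CPM in sham. Its log2 fold change was 1.76 ± 0.57 (adjusted p = 0.0719).

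Colec12, a scavenger receptor of the collectin family and the highest gene of the lectin group by CPM, was at 99.8, 108 and 134 CPM in sham and 136, 233 and 226 CPM in traction scars of Tem1WT/WT mice. It rose by 0.80 ± 0.22 (adjusted p = 0.0474) and by 0.71 ± 0.16 averaged over the genotypes (adjusted p = 0.0282). The highest sham and the lowest traction library, at 134 and 136 CPM, lay close together. The other 4 tested genes of the lectin group were not called.

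In the terminal group, whose proteins form the membrane pore, all 5 tested genes had negative values with traction in both genotypes, and C7 and C9 passed the test in Tem1WT/WT mice. C7 was at 104, 22.5 and 12.6 CPM in sham and 10.4, 3.49 and 4.56 CPM in traction scars, and fell by 2.91 on the log2 scale (SE 0.74, adjusted p = 0.040). Sham replicate 1 set much of this size: without it the value was -1.52 (adjusted p = 0.149). C9 had 22 to 30 counts in the sham and 1 to 4 counts in the traction libraries and fell by 3.08 (SE 0.56, adjusted p = 0.0252), with no more than 0.651 CPM in any of these 6 libraries. The averaged traction effect called both again, at -1.84 (adjusted p = 0.0458) and -2.01 (adjusted p = 0.0214). The 6 skeletal muscle markers summed to 642 to 7672 CPM in sham and 173 to 1269 CPM in traction scars of Tem1WT/WT mice, and their part in these values was not tested. Sham replicate 1 was the highest library for these markers as well as for C7.

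Of the regulators, Cfi and Cd55 passed the test in the averaged traction effect. Cfi, the protease that inactivates C3b and C4b, was higher by 1.74 ± 0.42 (adjusted p = 0.0336), at no more than 2.08 CPM in any library. Its values within the genotypes were 1.82 and 1.67, neither of them called, although its traction libraries lay above the sham libraries in both. Cd55, which breaks up the C3-cleaving enzymes on cell surfaces and was the highest membrane regulator, fell by 1.06 (SE 0.28, adjusted p = 0.0434). Its sham libraries were at 133, 72.9 and 168 CPM in Tem1WT/WT and 139, 90.8 and 210 CPM in Tem1lacZ/lacZ mice. Traction libraries of Cd55 were at 31.7, 74.5 and 67.0 CPM and at 79.6, 57.7 and 80.5 CPM. Serping1, the C1 inhibitor and the highest soluble regulator, was at 514 to 997 CPM in sham and 862 to 1118 CPM in traction scars of Tem1WT/WT mice and was not called (0.37 ± 0.30, adjusted p = 0.425).

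The highest genes of the remaining groups were not called either. C1s1, the partner of C1ra, had a log2 fold change of 0.37 ± 0.31 with traction in Tem1WT/WT mice (adjusted p = 0.449). Cfd, factor D, which adipocytes make and which cleaves factor B, ranged from 6.38 to 2877 CPM over the 12 libraries and changed by -1.45 ± 1.59 (adjusted p = 0.564). C4a, the only other gene of its group, was at a level close to 1 CPM and changed by -0.14 ± 0.42. In the averaged effect, 3 of the 41 other complement genes rose (Colec12, Cd93, Cfi) and 3 fell (Cd55, C7, C9), against 9.73% of all genes. When each of the 12 libraries was left out in turn, the call held in 8 omissions for C9, 6 for Colec12, 5 each for Cd93 and Cfi, and 2 each for C7 and Cd55.

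**Figure D4:**
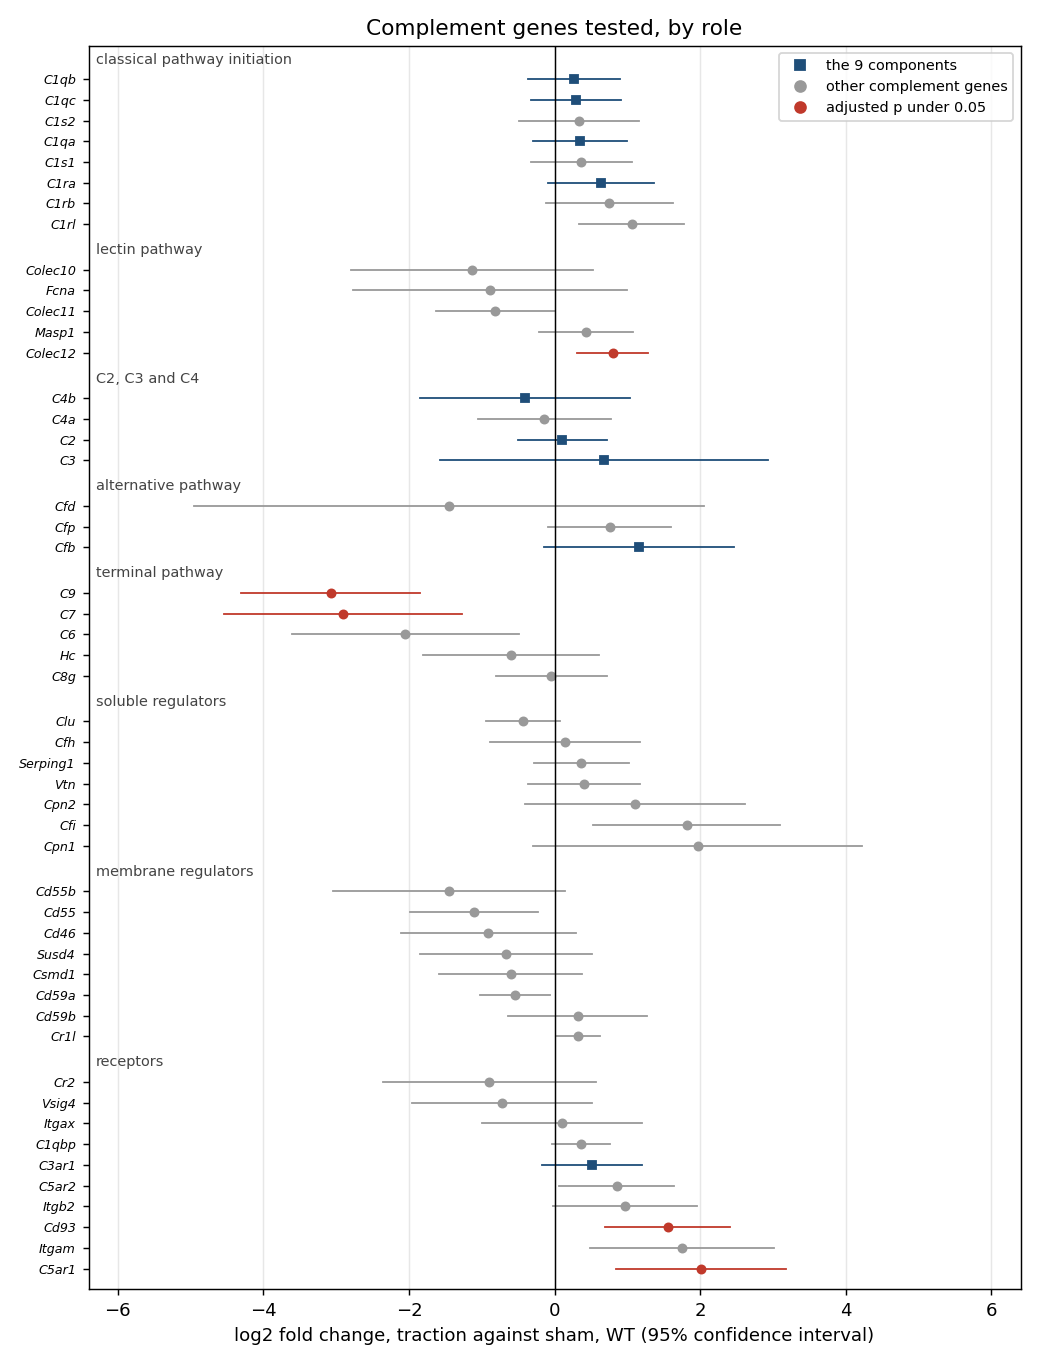
Log2 fold changes with traction in Tem1WT/WT mice for the 50 complement genes tested, by role, with 95% confidence intervals. Squares are the 9 components, and red marks adjusted p under 0.05 (edgeR, n = 3 per group). Colec12, C5ar1 and Cd93 are red above 0 and C7 and C9 below 0.

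Some cytokines are known to induce complement transcription. With traction in Tem1WT/WT mice, of 5 cytokine genes tested, 3 rose, beside 9.15% of all genes called: Il1b by 6.42 ± 1.70, Osm by 5.998 ± 1.48 and Il6 by 3.92 ± 0.86 on the log2 scale (adjusted p = 0.0432, 0.0381 and 0.0329 in edgeR). Il1b was at 84.9 to 3698 CPM in these traction libraries and 5.90 to 32.6 CPM in sham. In Tem1lacZ/lacZ mice, where edgeR called 0% of all genes, 0 of the 5 were called. Their log2 fold changes there ran from -0.60 to 2.12 (median 0.43, 4 of 5 above 0). The highest of these values was that of Il1b, and Il6 had 0.049 ± 0.81. The interaction also called 0 of 5, with 3 at an unadjusted p under 0.05 beside 8.91% of all genes. Il1b is made by neutrophils and macrophages, and the part of the library rich in neutrophil markers in these values was not tested.

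Patterns over the 12 libraries were compared by Pearson's r of log2 CPM, as a description of libraries that share depth and tissue composition. Among the 36 pairs of components r ran from 0.473 (C4b and C3ar1) to 0.970. The gene outside the set most like C1qa was Cfp, which encodes properdin, the stabiliser of the amplification enzyme (r = 0.954), followed by Cyth4 and Unc93b1. Cfb was closest to Cyth4 (0.963), Sash3 and Dennd4b, and C3ar1 to Tm6sf1 (0.955), Tnfaip8l2 and BC028528. C1qb was closest to Adamts5 (0.905), Ptpn18 and Cd200r1, and C1qc to B3galnt1 (0.905), Tep1 and Camk1. C1ra was closest to Ggt5 (0.961), Unc93b1 and Il6st, and C2 to Insr (0.953), Peg13 and Arhgef18. C3 and C4b shared their closest gene, Dgkd (0.933 and 0.938). It was followed by Insr and Cyp4v3 for C3 and by Cygb and Kbtbd11 for C4b.

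Close copies could take reads from 2 of the components. C1rb had at most 0.589% of the counts of C1ra in any library, and C4a at most 1.24% of those of C4b, but reads that match both copies may have been left out or split. Zbtb12 overlaps C2 on the opposite strand, and the strand setting of the counting is not given in the sources used here, so the low values of C2 may include reads from either gene.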

How the data were processed

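The authors made stranded poly(A) libraries from scar RNA, 1 per sample. Per the labels and the study's methods, reads were trimmed with fastp 0.20.0, aligned to GRCm38 with HISAT2 2.1.0 and counted per gene with featureCounts 2.0.0. The authors deposited raw counts per gene and library without normalization. The annotation, strand setting and handling of multiply aligned reads are not given in the sources used here. Labels number the libraries but do not name the mice, so p-values measure the spread between these libraries.

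Counts were filtered with filterByExpr by group, scaled by TMM and fitted with edgeR 4.0.16 (robust glmQLFit, R 4.3.3) in 1 model of 4 groups (residual df 8). All tests were two-sided, with p-values adjusted over 18853 genes, and called at an adjusted p under 0.05. Errors are standard errors of log2 fold changes. RPKM used exon-union lengths from GENCODE vM21. Correlations used log2 CPM with a prior count of 2. The fit was tested on simulated data with less spread than these libraries and with larger changes than those of the components. That test does not show how well changes of the size seen here would be found.

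Alternatives were DESeq2 1.42.0, limma-voom with sample weights (limma 3.58.1), other scalings, filters and fits, a replicate block and leaving out each library. The components and gene lists were chosen with earlier results of these data known. Named genes were the 9 components, other complement genes called in any comparison, the highest of each group by CPM, and the 3 most similar genes (mean log2 CPM of at least 1) for each component. Cytokines that passed the test were named after their values were seen. A list of transcription factors is not reported here.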

Additional observations from a re-analysis of the deposited data

How the results depend on the processing

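The count of components called stayed at 0 of 9 in 5 of the 6 comparisons under every alternative run (20 for the interaction and the averaged effect, 21 for the others). In the averaged traction effect it was 1 (C1ra) with limma-voom and 0 to 1 as single libraries were left out. Of 1116 values of the components under alternatives 1053 kept their direction and side of the threshold, 2 crossed the threshold and 61 changed sign. Upper quartile normalization moved the median of all genes with traction in Tem1WT/WT mice from -0.0094 to -0.12 and gave C2 -0.0034 there and C1qc 0.048 for the genotype in sham scars. limma-voom gave C1qb 0.013 and C1qc 0.12 for the genotype in sham scars, C3 0.60 for the interaction and C4b 0.20 for the averaged effect. Leaving out each library in turn changed the sign of the following log2 fold changes at least once. Ranges with traction in Tem1WT/WT mice were C2 -0.024 to 0.31 and C4b -0.63 to 0.086. Ranges with traction in Tem1lacZ/lacZ mice were C1qb -0.046 to 0.47, C1qc -0.091 to 0.41, C3 -0.96 to 1.77 and C4b -0.50 to 0.88. Ranges for the genotype with traction were C1qa -0.48 to 0.012, C1qb -0.42 to 0.084, C1qc -0.39 to 0.10, C2 -0.36 to 0.023 and C4b -1.22 to 0.15. Ranges for the genotype in sham scars were C1qb -0.30 to 0.13 and C1qc -0.19 to 0.20. Ranges for the interaction were C1qa -0.28 to 0.24, C1qb -0.34 to 0.21, C1qc -0.39 to 0.13, C1ra -0.51 to 0.073, C2 -0.13 to 0.45, C3 -1.66 to 1.09, C4b -0.11 to 1.29, Cfb -0.89 to 0.20 and C3ar1 -0.39 to 0.19. Ranges for the averaged traction effect were C3 -0.13 to 1.23 and C4b -0.45 to 0.23.

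Other complement genes called with traction in Tem1WT/WT mice were 5 by edgeR, 10 by DESeq2, 2 by limma-voom, 1 with all genes of at least 1 count, 0 with only the 6 libraries compared and 0 to 5 without single libraries. In the averaged effect 6 became 13 with DESeq2, 11 with limma-voom and 0 to 10 without single libraries. Between the genotypes with traction 0 became 5 with DESeq2 and 0 to 2 without single libraries, and with traction in Tem1lacZ/lacZ mice limma-voom called 1. Over all genes DESeq2 called 4047 for traction in Tem1WT/WT mice and 2334 for the genotype with traction, where edgeR called 1725 and 20. The cause of these differences was not tested.

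With the replicate number as a block, 3 other complement genes were called with traction in Tem1WT/WT mice, the interaction of C3 was 0.14 and the averaged effect of C4b was 0.034. Deviations of same-numbered libraries from their group means had r from -0.32 to 0.25 over 18 pairs, 8 of them over 0.1. Differently numbered libraries were not compared, so these values cannot decide whether the numbers mark pairs. The labels name no pairs, and the main fit used none. No component had fewer than 1009 counts in any library, and the part of depth and of the number of libraries in the width of the intervals was not tested.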
